A study of Homo sapiens with 24 samples.

Results

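The transcripts of 35 aminoacyl-tRNA synthetase genes were examined in the head and neck squamous carcinoma line MDA686TU, 19 encoding cytosolic enzymes and 16 encoding mitochondrial enzymes. The genes were taken from a list of family members and matched by Ensembl gene identifier to the table of counts. The match used no measured values, but the list was chosen with earlier results of these data known. All 35 were found among the 60617 genes of the table, and all 35 were among the 15476 genes with enough reads to test. The enzymes named here as cytosolic carry symbols ending in 1 together with EPRS1, FARSA and FARSB, and those named mitochondrial carry symbols ending in 2. GARS1 and KARS1 each supply both compartments from a single gene and were counted as cytosolic.

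The 24 libraries formed 4 groups of 6. A group left without treatment is called the control. The others received 40 µM EGCG, the main catechin of green tea, or 15 µM resveratrol, a stilbene of grapes, or both at those doses, and every treated culture was harvested after 24 h. The solvent was DMSO for the resveratrol stock and water for EGCG. Whether the control or the EGCG group received DMSO is not given in the sources used here. Each contrast of a resveratrol-treated group with the control or with EGCG therefore also holds any effect of the solvent, and these cannot be told apart. The study used the line to ask which genes each compound and the combination affected. A single cell line limits the comparison, and the labels call the libraries replicates without saying how they were obtained, so the p-values measure the spread between these libraries.

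Each aminoacyl-tRNA synthetase joins an amino acid to its own tRNA, which is the step that sets the reading of the genetic code. Animal cells keep separate nuclear genes for the cytosolic and the mitochondrial enzymes of most amino acids. Several cytosolic enzymes sit in a multisynthetase complex held by the scaffold proteins AIMP1, AIMP2 and EEF1E1. Many cytosolic synthetase genes are known targets of ATF4, a transcription factor of the response to amino acid shortage and endoplasmic reticulum stress, and WARS1 is also known for its induction by interferon gamma.

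Total counts per library ran from 7034872 to 11735574. All 7 squamous epithelial markers examined were detected, and the leukocyte gene PTPRC stayed at or below 0.95 normalized counts in the control libraries. Of the genes of endothelial cells, PECAM1 was at 0 in each control library and CDH5 lay between 0.92 and 3.15. Of those 7 markers, 4 fell and CDH1 and TP63 rose with the combination, with a median log2 fold change of -0.34. Of the fibroblast genes, the collagen gene COL1A1 lay between 1083 and 1328 normalized counts in the control libraries. COL1A2 lay between 12.2 and 28.9 there, and DCN between 0 and 1.05. COL1A1 rose by 0.48 with the combination. The part of the epithelial or the COL1A1 movement in the synthetase results was not tested. The share of counts from genes encoded in the mitochondrial genome was 0.249% to 0.326% in the libraries numbered 1 to 3 and 0.448% to 0.775% in those numbered 4 to 6. Contrasts were therefore also computed within each set of 3, and within-set values are given beside the largest changes.

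Before treatment, the cytosolic transcripts were the more abundant. The deposited FPKM divide by a length for each gene, and how that length was set is not given in the sources used here. The order between genes depends on it. On this scale the median of the 19 cytosolic genes in a control library was 59.6 (lowest 57.3, highest 60.4 over 6 libraries). The median of the 16 mitochondrial genes was 8.59 (7.92 to 9.04). The control level was highest for GARS1, the glycyl-tRNA synthetase, at a median FPKM of 146, followed by KARS1, the lysyl enzyme, at 132, AARS1, the alanyl enzyme, at 120, TARS1, the threonyl enzyme, at 112 and SARS1, the seryl enzyme, at 84.6. None of these 5 overlapped its neighbour in the order over the 6 control libraries. Further down, 14 of the neighbouring pairs overlapped, among them WARS1 with MARS1 and RARS1 with FARSA.

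The compartments interleaved in the middle of the order. IARS2, the mitochondrial isoleucyl enzyme, had the highest mitochondrial level with a median FPKM of 48.0, close to the 51.7 of its cytosolic counterpart IARS1. In normalized counts, which are not divided by length, the control medians were 1732 for IARS2 and 3337 for IARS1. YARS2, the mitochondrial tyrosyl enzyme, stood at 36.0, with a median above those of the cytosolic genes VARS1, QARS1 and LARS1. SARS2 and FARS2, the mitochondrial seryl and phenylalanyl enzymes, closed the order at 1.84 and 1.81, and SARS2 was the most thinly counted member, with 26 reads in its lowest library. Precision falls with the count, so standard errors on the log2 scale ran from 0.0241 for WARS1 to 0.129 for SARS2 in the contrast of the combination with the control.

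**Figure D1:**
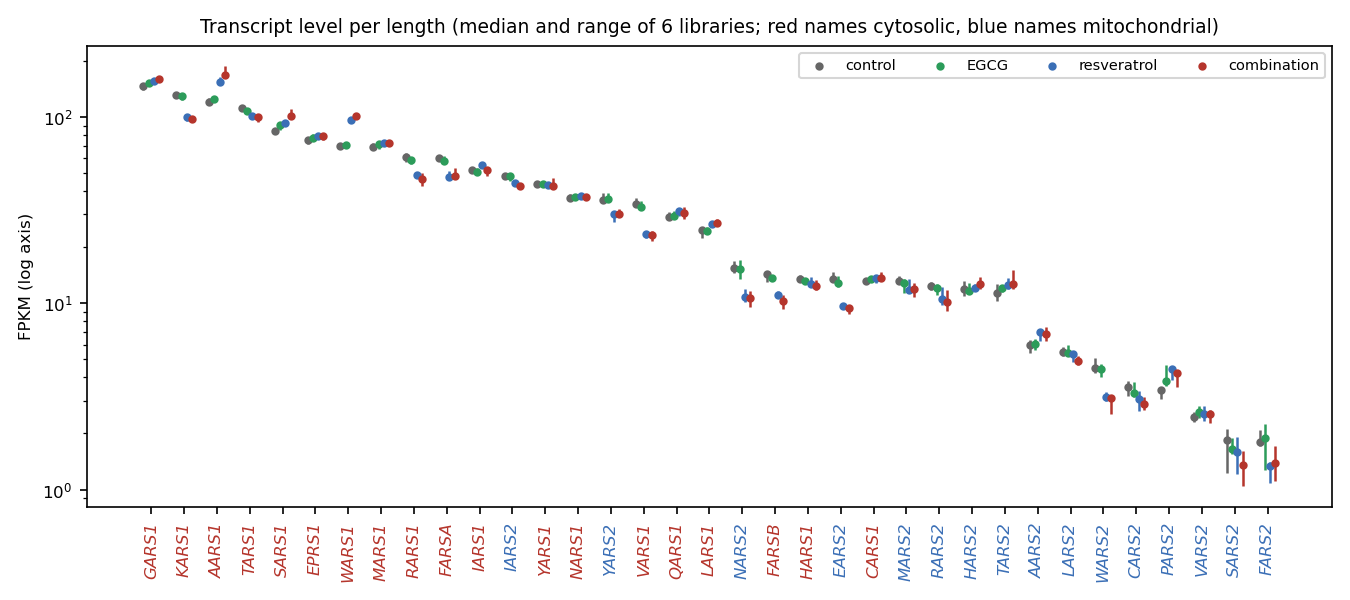
Transcript level per length of the 35 synthetase genes as deposited FPKM on a log axis, ordered by the control median, with points for the median and lines for the range of 6 libraries in each group. Red names mark cytosolic and blue names mitochondrial genes, from GARS1 at a control median of 146 to FARS2 at 1.81.

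With resveratrol alone, 9 of the 19 cytosolic genes rose and 6 fell, and 3 of the 16 mitochondrial genes rose while 9 fell. With the combination, 9 cytosolic genes rose and 7 fell, and 3 mitochondrial genes rose while 11 fell. A gene was called where edgeR's quasi-likelihood test gave a Benjamini-Hochberg adjusted p under 0.1 and an unadjusted p under 0.05, the thresholds of the study. By this rule 56.9% of all genes tested were called with resveratrol (28.9% higher and 28% lower) and 59.8% with the combination (29.9% higher and 29.9% lower), against 27 of 35 members (77.1%) and 30 of 35 (85.7%). The genes tested were not matched to the members for read count, here or in the shares of all genes given below. Precision falls with the count, and how far read counts account for the higher share among members was not tested. The changes were small, and in the combination only WARS2 passed a 1.5-fold difference from the control. Because RNA came from whole cultures, fewer cells carrying a transcript and less of it per cell cannot be told apart.

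The median log2 fold change with the combination was 0.02 over the cytosolic genes and -0.22 over the mitochondrial genes, with -0.00 over all genes tested. With resveratrol alone these medians were 0.05, -0.17 and 0.00. Scaling by library size alone, without the composition factor used otherwise, raised the median of all genes by 0.088 with resveratrol and by 0.083 with the combination. Under that scaling the mitochondrial calls divided into 5 higher and 5 lower with resveratrol, and into 5 higher and 9 lower with the combination, where the cytosolic calls became 12 higher and 6 lower and the cytosolic median 0.11. The mitochondrial median stayed below 0 under that scaling, at -0.08 with resveratrol and -0.14 with the combination.

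**Figure D2:**
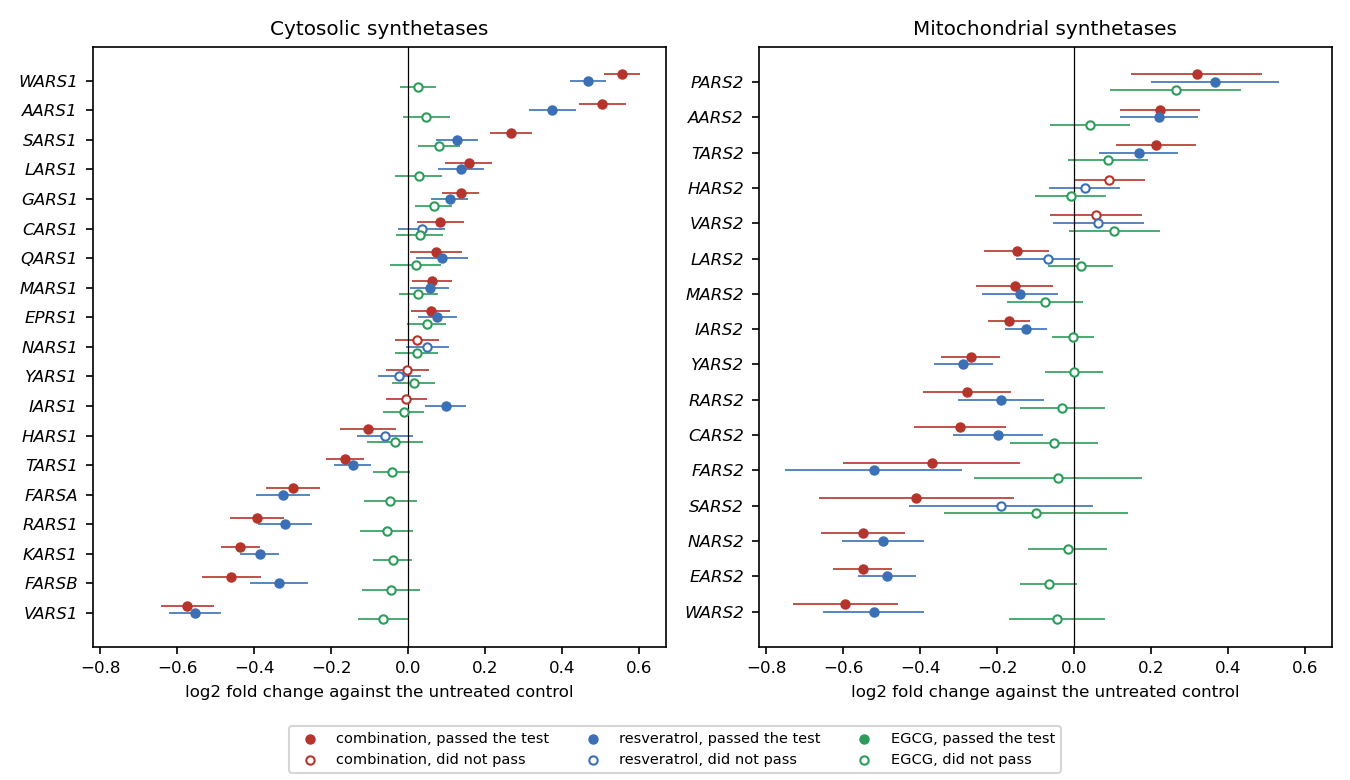
Log2 fold change of each synthetase gene against the untreated control (points) with its 95% confidence interval (lines), for EGCG, resveratrol and the combination, 6 libraries in each group. Filled points passed the test, and none of the EGCG points is filled. WARS1 and AARS1 lie at the top and VARS1 and WARS2 at the bottom of their panels.

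WARS1, the cytosolic tryptophanyl enzyme (ENSG00000140105, chr14:100333790-100376805 on the minus strand, GRCh38), had the largest rise in the family. Its normalized counts were 3787, 3854 and 3908 (lowest, median and highest of 6 libraries) in the control and 3782, 3900 and 4059 with EGCG. Resveratrol alone gave 5177, 5325 and 5371, and the combination gave 5549, 5604 and 5851. Control and EGCG libraries overlapped, both resveratrol-treated groups lay above all of them, and the combination lay above resveratrol alone in every library. The log2 fold change against control was 0.47 ± 0.0241 (SE, 6 libraries a group) with resveratrol (edgeR adjusted p = 3.6e-18) and 0.55 ± 0.0241 with the combination (edgeR adjusted p = 1.67e-20). Within replicates 1 to 3 and 4 to 6 the combination gave 0.58 and 0.54.

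AARS1, the cytosolic alanyl enzyme (ENSG00000090861, chr16:70251983-70289707, minus strand), followed it. Normalized counts of AARS1 were 4525, 4724 and 4959 in the control, 4725, 4923 and 4976 with EGCG, 5852, 6079 and 6398 under resveratrol, and 6440, 6572 and 7327 under both compounds. As for WARS1, the resveratrol and combination groups overlapped neither the control nor each other. The change against control was 0.37 ± 0.031 with resveratrol (edgeR adjusted p = 1.37e-12) and 0.50 ± 0.0311 with the combination (edgeR adjusted p = 2.84e-16). The highest value, 7327, came from combination replicate 3, and the combination raised AARS1 by 0.57 in the first set of replicates and by 0.45 in the second.

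SARS1, the cytosolic seryl enzyme, which also charges the tRNA for selenocysteine, rose less. Its normalized counts were 2816, 2841 and 2925 in the control and 2863, 3035 and 3067 with EGCG. With resveratrol they were 3039, 3105 and 3192, and with the combination 3286, 3381 and 3702. The combination exceeded every library of the other groups, and the log2 change against control was 0.13 ± 0.028 with resveratrol (edgeR adjusted p = 0.000251) and 0.27 ± 0.028 with the combination (edgeR adjusted p = 3.31e-10). Within the sets of replicates the combination gave 0.31 and 0.24. The leucyl enzyme LARS1 (0.16 with the combination, edgeR adjusted p = 4.86e-05) and the glycyl enzyme GARS1 (0.14, edgeR adjusted p = 1.29e-05) also rose and did not overlap the control. CARS1, QARS1, MARS1 and EPRS1 passed the test with changes of 0.06 to 0.08 and overlapped the control. MARS1 and QARS1 no longer passed when combination replicate 3 was left out, which brought the cytosolic rises from 9 to 7. None of these 4 genes passed when no filter beyond a single read was applied, or in replicates 4 to 6 alone, and either setting left 5 cytosolic rises.

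VARS1, the valyl enzyme (ENSG00000204394, chr6:31777518-31795752, minus strand), had the largest cytosolic fall. Its normalized counts were 1718, 1746 and 1887 in the control, 1641, 1683 and 1821 with EGCG, 1156, 1215 and 1250 under resveratrol, and 1104, 1196 and 1260 under both compounds. Every resveratrol-treated library lay below every other library, while resveratrol alone and the combination overlapped. The log2 fold change was -0.55 ± 0.0344 with resveratrol (edgeR adjusted p = 5.52e-16) and -0.57 ± 0.0347 with the combination (edgeR adjusted p = 1.64e-16), with -0.53 and -0.60 in the 2 sets of replicates.

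Both subunits of the cytosolic phenylalanyl enzyme fell. FARSB, the beta subunit, had 793, 876.6 and 907.3 normalized counts in the control and 818.9, 833.1 and 869.3 with EGCG. Resveratrol alone gave 669.4, 674.6 and 710.6 and the combination gave 570.7, 630.0 and 678.1, below every control library. FARSB changed by -0.46 on the log2 scale under the combination, with an SE of 0.0393 (edgeR adjusted p = 2.06e-12), and that of the alpha subunit FARSA was -0.30 ± 0.036 (edgeR adjusted p = 6.79e-09). FARSB stood at -0.53 in replicates 1 to 3 and at -0.37 in replicates 4 to 6. KARS1 at -0.44 and the arginyl enzyme RARS1 at -0.39 fell as well, and TARS1 at -0.16. HARS1, the histidyl enzyme, fell by 0.10 on the log2 scale with the combination, overlapped the control and no longer passed when libraries were scaled by size alone (edgeR adjusted p = 0.644).

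The asparaginyl and tyrosyl enzymes NARS1 and YARS1 did not pass in any of the 6 contrasts. Their log2 fold changes with the combination were 0.02 ± 0.029 and -0.00 ± 0.0284.

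Among the mitochondrial genes the largest falls with the combination were those of WARS2, EARS2, NARS2 and SARS2, the tryptophanyl, glutamyl, asparaginyl and seryl enzymes. WARS2 (ENSG00000116874, chr1:119031216-119140654, minus strand) had 141.8, 150.9 and 170.9 normalized counts in the control, 134.6, 149.1 and 157.7 with EGCG, 99.9, 105.8 and 111.7 under resveratrol, and 85.6, 103.8 and 108.2 under both compounds. Its log2 fold change was -0.52 ± 0.067 with resveratrol (edgeR adjusted p = 3.51e-08) and -0.59 ± 0.069 with the combination (edgeR adjusted p = 3.22e-09). Neither resveratrol-treated group overlapped the control or EGCG groups. The size differed between the sets, at -0.44 in replicates 1 to 3 and -0.74 in replicates 4 to 6 for the combination.

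EARS2 (ENSG00000103356, chr16:23520754-23557731, minus strand) had 648.8, 673.7 and 738.2 normalized counts in the control and 614.2, 640.5 and 697.9 with EGCG. Under resveratrol it had 472.7, 482.3 and 502.5, and under both compounds 437.6, 469.1 and 475.6, a log2 change of -0.55 ± 0.0392 against the control (edgeR adjusted p = 1.62e-14). The resveratrol-treated libraries stood apart from all the others, as they did for NARS2, and the sets of replicates gave -0.58 and -0.51 for EARS2.

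NARS2 (ENSG00000137513, chr11:78435620-78575194, minus strand) had 399.9, 423.8 and 465.2 in the control, 368.8, 420.6 and 467.1 with EGCG, 280.5, 296.9 and 325.6 under resveratrol, and 263.0, 294.0 and 319.5 under both compounds. For NARS2 the log2 change of the combination from the control was -0.55 ± 0.0556 (edgeR adjusted p = 1.35e-10), with -0.58 and -0.50 in the sets. SARS2 had 34.65, 52.0 and 59.8 in the control, 44, 46.5 and 53.1 with EGCG, 34.05, 44.7 and 53.7 under resveratrol, and 29.3, 38.4 and 45.5 under both compounds. The groups of SARS2 overlapped, and its change passed with the combination at -0.41 ± 0.129 (edgeR adjusted p = 0.00694) but not with resveratrol alone at -0.19 ± 0.122 (edgeR adjusted p = 0.196). Within the sets the combination gave -0.42 and -0.39 for SARS2.

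The other mitochondrial genes that fell with the combination were FARS2 (-0.37), CARS2 (-0.30), RARS2 (-0.28), YARS2 (-0.27), IARS2 (-0.17), MARS2 (-0.15) and LARS2 (-0.15). FARS2 had fallen further with resveratrol alone, at -0.52 ± 0.118 (edgeR adjusted p = 0.000321), as far as WARS2 in that contrast. Its change with the combination was -0.27 in replicates 1 to 3, where it did not pass (edgeR adjusted p = 0.156), and -0.48 in replicates 4 to 6. RARS2 and LARS2 overlapped the control. MARS2 and LARS2 no longer passed when libraries were scaled by size alone.

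PARS2, AARS2 and TARS2, the prolyl, alanyl and threonyl enzymes, moved the other way. PARS2 had 62.7, 70.3 and 73.5 normalized counts in the control and 79.3, 91.1 and 93.9 with resveratrol, groups that did not overlap, and 73.3, 87.0 and 89.7 with the combination, whose lowest library reached into the control range. The log2 fold change with the combination was 0.32 ± 0.0869 for PARS2 (edgeR adjusted p = 0.00224), 0.22 ± 0.0527 for AARS2 (edgeR adjusted p = 0.000486) and 0.21 ± 0.0528 for TARS2 (edgeR adjusted p = 0.000851). HARS2 and VARS2, the histidyl and valyl enzymes, did not pass in this contrast, at 0.09 ± 0.0471 and 0.06 ± 0.061.

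**Figure D3:**
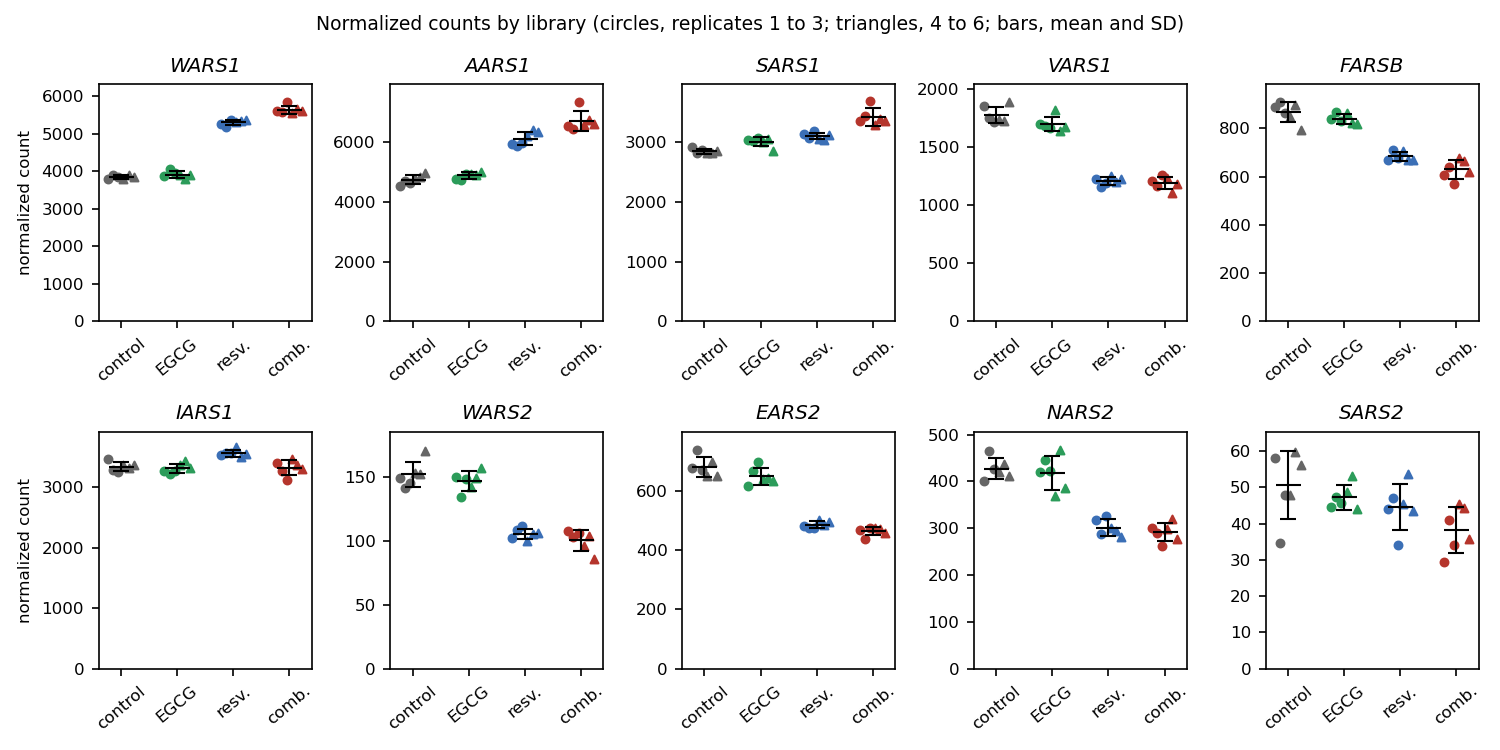
Deposited normalized counts of the 10 synthetase genes described in full, 1 panel a gene on axes that start at 0, with a circle for each library of replicates 1 to 3, a triangle for each of replicates 4 to 6, and bars for the mean and SD of 6. WARS1 rises from a control median of 3854 to 5604 with the combination, and VARS1 falls from 1746 to 1196.

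A stricter view is to ask in which genes the 6 libraries of each group did not overlap. By normalized counts, 8 members lay wholly above the control with resveratrol and 12 wholly below it, where 15.1% and 15.9% of all genes tested did so. With the combination these numbers were 5 and 14, against 15.4% and 16.5%. The smallest two-sided p that the exact permutation test can give over 6 libraries against 6 is 0.00216. WARS1, AARS1, SARS1, VARS1, FARSB, WARS2, EARS2 and NARS2 each had it for the combination against the control. Each of these genes lay wholly apart from the control there, which by itself fixes the p at that value. They were also picked by their changes in these same data, so the p only repeats the separation.

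Synthetases fall into class I and class II by the fold of the catalytic domain. None of the 9 mitochondrial class I genes rose with the combination and 8 fell, the exception being VARS2. Of the 7 class II genes, PARS2, AARS2 and TARS2 rose and NARS2, SARS2 and FARS2 fell. The median log2 fold changes were -0.27 and 0.09, and no difference between the classes was tested. Under scaling by library size alone VARS2 passed as higher, and LARS2 and MARS2 no longer passed, which left 6 falls in class I. The cytosolic counts were 5 rises and 2 falls among 9 of class I and 3 rises and 5 falls among 9 of class II, and EPRS1, which holds a domain of each class, was left out of this division.

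Setting the cytosolic enzyme beside the mitochondrial enzyme for the same amino acid gave 13 pairs with 1 gene in each compartment. With the combination the cytosolic gene had the higher log2 fold change in 9 pairs, with a median difference of 0.27. In 6 pairs the genes were called in opposite directions. WARS1 and WARS2 were the farthest apart at 0.55 and -0.59, followed by SARS1 and SARS2 at 0.27 and -0.41. The mitochondrial gene was the higher in the other 4 pairs, most of all in the valyl pair with VARS1 at -0.57 and VARS2 at 0.06, then in the threonyl pair with TARS1 at -0.16 and TARS2 at 0.21. The histidyl pair stood at -0.10 and 0.09. The arginyl pair fell in both compartments, at -0.39 and -0.28, and the alanyl pair rose in both. With EGCG alone, where no member was called, the cytosolic gene was the higher in 8 of 13 pairs.

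The bifunctional enzyme EPRS1, which charges glutamyl and prolyl tRNAs, has separate mitochondrial counterparts. EPRS1 changed by 0.06 with the combination, while EARS2 changed by -0.55 and PARS2 by 0.32. The phenylalanyl genes fell in both compartments, at -0.30 for FARSA, -0.46 for FARSB and -0.37 for FARS2. With resveratrol alone the cytosolic member was again the higher in 9 of 13 pairs, with a median difference of 0.20.

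**Figure D4:**
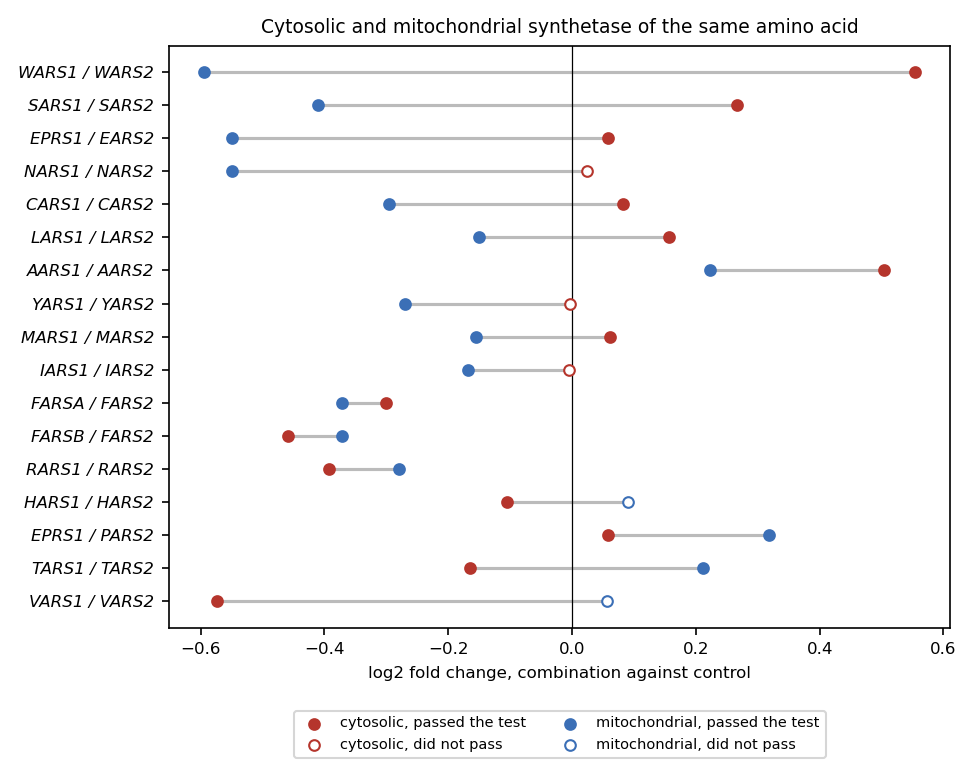
Log2 fold change with the combination against the control for the cytosolic (red) and the mitochondrial (blue) synthetase of the same amino acid, joined by a grey line, ordered by the difference between them. Filled points passed the test, and WARS1 at 0.55 stands farthest from its partner, WARS2 at -0.59.

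Summed over its genes, each compartment took a small share of the reads. The cytosolic genes together took a median of 0.592% of all reads in the control (0.586% to 0.597% over 6 libraries), 0.593% to 0.606% with EGCG, 0.646% with resveratrol (0.641% to 0.647%) and 0.651% with the combination (0.646% to 0.665%). Both resveratrol-treated groups lay above the control range. These shares are scaled by library size alone, which raised the median of all genes as given above, and the rise was smaller in normalized counts, where the cytosolic sum had a median of 53073 in the control (52564 to 53523), 54080 with resveratrol (53606 to 54851) and 54909 with the combination (54621 to 55982). The mitochondrial genes together took 0.0747% in the control (0.0742% to 0.0760%), 0.0715% with resveratrol (0.0697% to 0.0731%) and 0.0699% with the combination (0.0692% to 0.0705%), below the control range in both. Their normalized counts summed to 6696 (6615 to 6796), 6028 (5872 to 6083) and 5906 (5851 to 5923) in the same order. On the per-length scale the median cytosolic gene went the other way, from an FPKM of 59.6 before treatment to 49.1 under resveratrol and 48.6 under both compounds. RARS1 and FARSA, which both fell, lay nearest the middle of the cytosolic order in the control.

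The cytosolic genes were next divided by whether they are known targets of ATF4. Of 12 such genes, 8 rose with the combination and TARS1 fell, with a median log2 fold change of 0.07. Of the 7 other cytosolic genes, QARS1 rose and 6 fell, with a median of -0.39. With resveratrol alone the counts were 8 higher and 1 lower against 1 higher and 5 lower, and the medians 0.09 and -0.33. Of the 8 genes that rose with the combination, CARS1, EPRS1 and MARS1 no longer passed when no filter beyond a single read was applied (edgeR adjusted p = 0.154, 0.323 and 0.262) or in replicates 4 to 6 alone, which left 5, and QARS1 was lost in the same settings. The division was drawn with earlier results of these data known, so these counts are a description.

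The promoters were read for the letters TGATGNAA, the core of the amino acid response element bound by ATF4, on both strands. RefSeq windows on GRCh38.p14, from 250 bases before to 50 after the start site, were found for 30 of the 35 genes and not for LARS1, VARS1, YARS1, AARS2 and VARS2. The motif was present in 7 of 10 ATF4-responsive genes (70%), in 0 of the 6 other cytosolic genes and in 1 of 14 mitochondrial genes (7.14%), against 4.46% of all 27305 gene symbols with a window. Of the ATF4 and amino acid response genes described below, 3 of 10 (30%) held it. The ATF4-responsive list holds known ATF4 targets, so its share of an ATF4 motif is not independent of how it was drawn. All 8 matches in synthetase genes are shown so that the letters can be compared between genes. Each is given as 30 bases on the strand of its gene with the motif in capitals, which reads TTNCATCA where it lies on the other strand.
AARS1: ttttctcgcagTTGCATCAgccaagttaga
CARS1: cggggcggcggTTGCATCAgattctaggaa
GARS1: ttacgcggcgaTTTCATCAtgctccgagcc
IARS1: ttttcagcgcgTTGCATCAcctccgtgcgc
MARS1: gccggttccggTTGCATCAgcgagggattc
NARS1: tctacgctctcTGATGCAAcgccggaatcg
TARS1: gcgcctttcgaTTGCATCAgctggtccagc
YARS2: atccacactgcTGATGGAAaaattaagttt
In order they lie at chr16:70289675-70289704 (minus strand), chr11:3057407-3057436 (minus), chr7:30594834-30594863 (plus), chr9:92293692-92293721 (minus), chr12:57488053-57488082 (plus), chr18:57621804-57621833 (minus), chr5:33440956-33440985 (plus) and chr12:32756076-32756105 (minus).

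In 6 of the 8 genes the stretch TTGCATCA, or TGATGCAA on the other strand, was the same to the base, and GARS1 and YARS2 differed at the free position. The matches of CARS1, MARS1 and IARS1 began at -2, -4 and -13 bases from the RefSeq start site, and those of AARS1 and YARS2 at -187 and -197. A match did not go with a rise in each gene. TARS1 holds the motif and fell, NARS1 holds it and did not pass, and WARS1, SARS1 and EPRS1 rose without it in their windows. The match is a description of letters, and no binding was measured.

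Most of the response genes around ATF4 rose alongside. Of 12 ATF4 and amino acid response genes, 10 rose with the combination, where 29.9% of all genes tested did. Among them were CHAC1, an enzyme that breaks down glutathione, at 1.45, DDIT3, which encodes the stress factor CHOP, at 1.08 and TRIB3, a pseudokinase, at 1.04. SLC3A2, the heavy chain of amino acid exchangers, fell by 0.35 on the log2 scale, and ATF4 itself rose by 0.12. ASNS was thinly counted and did not pass, with a median of 25.6 normalized counts in the control and 26.3 with the combination. The median over the 12 was 0.38, above the 0.07 of the 12 synthetase genes in that group.

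The interferon gamma genes reported beside WARS1 also rose, with TAP1 at 0.33, GBP1 at 0.59, IRF1 at 0.64 and PSMB9 at 0.70 with the combination. Whether either response bears on the synthetase changes was not tested.

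Genes that work beside the synthetases mostly fell. The scaffold genes AIMP1 (-0.28), AIMP2 (-0.19) and EEF1E1 (-0.49) and the tRNA exporter XPOT (-0.24) all fell with the combination. Among the 7 synthetase genes of the multisynthetase complex examined, EPRS1, LARS1, MARS1 and QARS1 rose, KARS1 and RARS1 fell, and IARS1 did not pass. The elongation factor genes EEF1A1 (-0.21), EEF1B2 (-0.21), EEF1D (-0.21) and TUFM (-0.13) fell and TSFM did not pass. EEF1G, also listed, had 0 normalized counts in every control library and was not tested for change. Of the genes that complete mitochondrial tRNA charging, GATB, a subunit of the glutamine amidotransferase, fell by 0.34 on the log2 scale, while QRSL1, GATC and MTFMT did not pass.

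Treatment with EGCG alone gave no called member in either compartment. Of all genes tested, 1.76% were called in this contrast. By unadjusted p under 0.05 there were 2 cytosolic members and 1 mitochondrial member, where 10.1% of all genes had such a p, and DESeq2 called none. The log2 fold changes of the cytosolic genes lay between -0.06 and 0.08, and those of the mitochondrial genes between -0.10 and 0.26. The largest, 0.26 ± 0.0868, was that of PARS2 (edgeR adjusted p = 0.2), whose EGCG libraries all lay above its control libraries, as was so for 0.788% of all genes. SARS1 stood at 0.08 ± 0.0281 (edgeR adjusted p = 0.22), and it passed when combination replicate 3 was left out of the joint fit (edgeR adjusted p = 0.0955).

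Adding EGCG to resveratrol gave 5 called members, all cytosolic, 3 higher and 2 lower, where 7.86% of all genes tested were called, 4.01% higher and 3.86% lower. SARS1 rose by a further 0.14 ± 0.0279 over resveratrol alone (edgeR adjusted p = 0.00135), AARS1 by 0.13 ± 0.0309 (edgeR adjusted p = 0.00781) and WARS1 by 0.09 ± 0.0239 (edgeR adjusted p = 0.024). In these 3 genes every combination library lay above every resveratrol library, as in 1.83% of all genes. FARSB fell further, by 0.12 on the log2 scale with an SE of 0.04 (edgeR adjusted p = 0.0664), and did not pass without combination replicate 3 (edgeR adjusted p = 0.183).

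IARS1, the cytosolic isoleucyl enzyme, rose with resveratrol against the control and fell for the combination against resveratrol. Both contrasts use the same resveratrol libraries, with opposite sign, so these results are not independent. It had 3246, 3337 and 3467 normalized counts in the control, 3213, 3292 and 3427 with EGCG, 3492, 3554 and 3666 under resveratrol, and 3117, 3338 and 3467 under both compounds. Resveratrol alone stood above every library of the other groups, and the combination overlapped the control. The combination changed by -0.005 against the control and by 0.006 against EGCG, and neither passed. The log2 fold change of IARS1 was 0.10 ± 0.0272 with resveratrol against control (edgeR adjusted p = 0.00309). For the combination against resveratrol it was -0.10 ± 0.0272 (edgeR adjusted p = 0.0199). That call was lost when no filter beyond a single read was applied (edgeR adjusted p = 0.11).

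The sets of 3 libraries gave fewer calls for the combination against resveratrol. In replicates 1 to 3 alone 4 cytosolic members passed, and in replicates 4 to 6 alone none did, although AARS1 (0.18 and 0.07), SARS1 (0.15 and 0.12), WARS1 (0.10 and 0.07), FARSB (-0.19 and -0.06) and IARS1 (-0.13 and -0.08) kept their direction in both. No mitochondrial member was called in this contrast, none had an unadjusted p under 0.05, and DESeq2 called none. Their log2 fold changes had a median of -0.05, and the 95% interval for EARS2, one of the best counted, ran from -0.14 to 0.02. In the test of whether the effect of EGCG differed with and without resveratrol, no member was called by edgeR or DESeq2 and 2 had an unadjusted p under 0.05, PARS2 at -0.31 and IARS1 at -0.09. Of all genes, 0.265% were called in this test and 7.72% had an unadjusted p under 0.05.

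Adding resveratrol to EGCG gave 5 cytosolic members that rose and 6 that fell, and 3 mitochondrial members that rose and 10 that fell, against 57.8% of all genes called, 28.7% higher and 29.1% lower. Under scaling by library size alone the cytosolic counts were 12 and 5. This contrast shares no library with that of resveratrol against the control, so the change with resveratrol was seen in separate libraries. Any effect of DMSO would enter both contrasts, and it cannot be told apart from that of resveratrol in either. The log2 fold changes had the same sign in 34 of 35 members, where 85.7% of all genes did, and Pearson's r over the 35 genes was 0.953, with 0.869 over all genes. WARS1 stood at 0.47 and 0.53, AARS1 at 0.37 and 0.46, VARS1 at -0.55 and -0.51 and WARS2 at -0.52 and -0.55. All 21 members called in both had the same direction, as did 7218 of the 7231 genes called in both over all genes tested. PARS2 was the farthest from equal change, at 0.37 ± 0.0848 without EGCG and 0.05 ± 0.0842 with it.

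**Figure D5:**
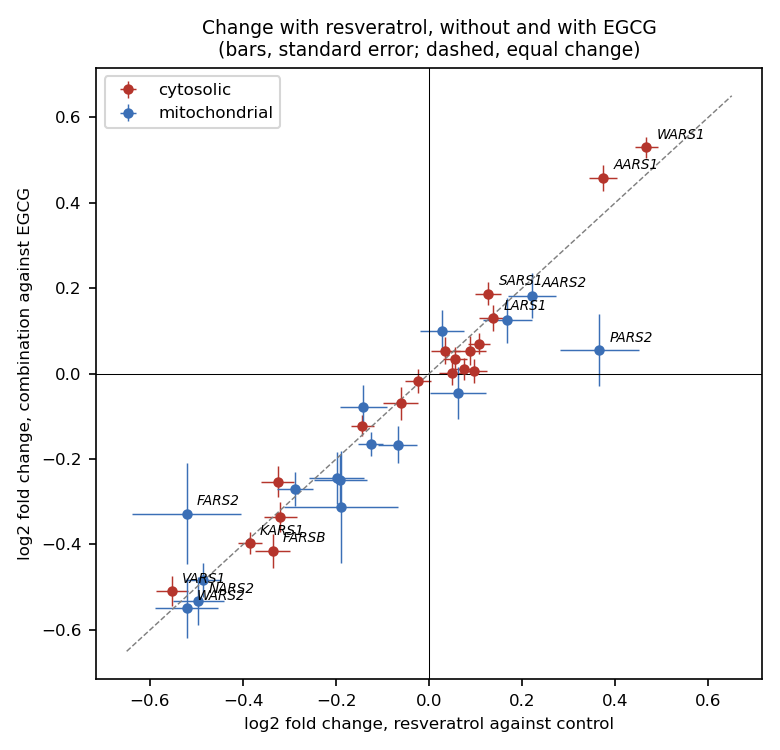
Log2 fold change of the 35 synthetase genes with resveratrol against the control (horizontal) and with the combination against EGCG (vertical), which share no library, with bars for the standard error and a dashed line for equal change. Most genes lie near the line and PARS2 lies well below it, at 0.37 and 0.05.

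The replicate sets, which also share no library, gave a like result. The sign of the change against the control was the same in replicates 1 to 3 and 4 to 6 for 34 of 35 members with resveratrol, where 82.4% of all genes did so, and for 34 of 35 with the combination, where 83.3% did. For EGCG alone it was the same in 26 of 35, where 59% of all genes did so.

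Some members share their locus with other genes. The library kit keeps strand, but whether the counting used it is not given in the sources used here, and without strand the reads of a gene and of its partner on the other strand cannot be told apart. MARS1 overlaps DDIT3 on the opposite strand, whose count was 9.38% of that of MARS1 and which rose by 1.08 with the combination, next to a change of 0.06 in MARS1. KARS1, at -0.44, overlaps TERF2IP, which had 17% of its count and changed by 0.23. AARS1, at 0.50, overlaps DDX19B, which had 10.8% of its count and changed by 0.10. WARS1 overlaps WDR25, which had 1.88% of its count and changed by 0.64. HARS1, at -0.10, overlaps WDR55, which had 49.9% of its count and changed by -0.05.

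The largest partners were those of mitochondrial genes. UBFD1, opposite EARS2, had 143% of its count and changed by 0.08, while EARS2 changed by -0.55. WARS2-AS1, opposite WARS2, had 64.9% of its count and changed by 0.06. ING1, opposite CARS2, had 53.0% of its count and changed by 0.01, while CARS2 changed by -0.30. DNM1L, opposite YARS2, had 296% of its count and changed by -0.32, close to the -0.27 of YARS2, so the value of YARS2 is uncertain. HARS1 and HARS2 start 107 bases apart on opposite strands, and HARS2 also overlaps ZMAT2 on its own strand, with 219% of its count. SARS2 overlaps ENSG00000269547 on its own strand, which had 0 reads. How reads shared by 2 genes were counted is not given in the sources used here, so the low level of SARS2 is uncertain.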

How the data were processed

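RNA from 24 libraries was sequenced by the authors from stranded mRNA libraries in paired ends. The submitters' processing notes name bcl2fastq 2.17.1.14, Trimmomatic 0.36, FastQC 0.11.5, HISAT2 2.0.4, SAMtools 1.3.1 and DESeq2 1.20.0 and the build GRCh38. The counting program, its annotation and its strand setting are not given in the sources used here. The deposited files hold raw read counts per gene, normalized counts (a signal scaled per library by the authors) and FPKM. Columns of the authors' own comparisons were not used.

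Raw counts were tested with edgeR 4.0.16 in R 4.3.3 (quasi-likelihood F test, TMM factors, low counts removed by filterByExpr over all groups, 1 joint fit of 24 libraries), and p-values were adjusted over 15476 genes by Benjamini and Hochberg. Total counts of 7034872 to 11735574 gave a biological coefficient of variation of 5.32%. Normalized counts show single libraries, and FPKM serve only to compare levels between genes. The scripts were tested on simulated data. Alternatives were DESeq2 1.42.0, its size factors, library size alone, other filters, only the groups compared, the replicate number or library set as a term, each set alone, and, chosen after seeing the data, a fit without combination replicate 3. Coordinates are from GENCODE release 44 and promoters from RefSeq.

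The members and gene lists were chosen with earlier results of these data known. Any of the 35 genes may be named. Described in full are the 4 genes of each compartment with the largest change under the combination among those called, and every gene called with EGCG alone, for the combination against resveratrol, or in the interaction. A gene of the interferon gamma list is not reported here.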

Additional observations from a re-analysis of the deposited data

Results flagged for a closer look

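In 10 of 140 groups of 6 libraries (7.14%, where chance gives about 5%), 1 library stood apart from the other 5 in its normalized count of a synthetase gene by Dixon's criterion. Combination replicate 3 was the highest of its group for 3 cytosolic genes, AARS1 at 7327 (the others 6440 to 6715), WARS1 at 5851 (5549 to 5660) and YARS1 at 3369 (3037 to 3131). EGCG replicate 4 was the highest for VARS1 at 1821 (1641 to 1705) and QARS1 at 1288 (1191 to 1216), and EGCG replicate 6 was the lowest for SARS1 at 2863 (3009 to 3067).

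LARS1 was lowest in control replicate 3 at 1580 (1717 to 1778), and NARS1 was highest in resveratrol replicate 6 at 1401 (1334 to 1352). Among the mitochondrial genes, MARS2 was highest in control replicate 5 at 370.1 (344.8 to 353.3) and PARS2 was lowest in combination replicate 1 at 73.3 (84.5 to 89.7). That last library is the one that overlapped the control range of PARS2.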

How the results depend on the processing

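Over 35 genes and 6 contrasts (210 results), no call turned its direction under any alternative. Taking the replicate number as a block changed 0 of the 210, so the combination against control kept 16 cytosolic and 14 mitochondrial calls with the block, and the library set as a term also changed 0. With each group's mean removed gene by gene, same-numbered libraries of different groups correlated at -0.011 to 0.131. Differently numbered libraries of the same set correlated at -0.088 to 0.137. Libraries of different sets correlated at -0.148 to 0.089, mostly lower than those of the same set. Each library was set against 6 of another group, and 15 of 36 correlated best with their own number. That is more than equal odds over the 6 would give, but such odds do not allow for the difference between the sets. These values do not settle whether the numbers are pairs, so the main fit used no pairing and the block was run beside it. DESeq2 removed 1 call. Counts that moved by over 1.5 times were the cytosolic calls for the combination against resveratrol (5), which became 2 when every gene with 1 count or more was kept and 0 in replicates 4 to 6, those for the combination against EGCG (11), which became 17 under library size alone, and the mitochondrial calls for that contrast (13), which became 8 in replicates 1 to 3. The cytosolic rises for the combination against control (9) became 5 when every gene with 1 count or more was kept and 5 in replicates 4 to 6. Without combination replicate 3, EGCG against control gained 1 cytosolic call (from 0), and 2 calls in all were gained and 6 lost. Library size alone gained 17 and lost 9. Changes under about 0.1 on the log2 scale lie near the limit that 6 libraries a group resolve, and SARS2, FARS2 and PARS2, with the fewest reads, have the widest errors.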
